A study of Sus scrofa with 22 samples.

Results

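Doxorubicin (DOX) is an anthracycline that blocks topoisomerase II, the enzyme that passes one DNA strand pair through another, and so leaves breaks in the DNA of dividing cells. The lining of the small intestine renews itself from dividing crypt cells, which makes the gut a main site of the drug's toxicity. The mucosa also holds T cells, antibody-producing cells and macrophages, and its epithelium secretes lysozyme, lectins and mucins that keep bacteria away from the surface. The comparison described here asks how 1 dose of DOX changed the small-intestinal transcriptome of newborn piglets. It comprises 12 of the 22 arrays of the series, chosen by their source labels: 6 DOX treated piglets and 6 untreated piglets of the same experiment.

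All 12 piglets were SPF (specific pathogen free) crosses of Large White and Danish Landrace, described as 3 days old, and had suckled before they were brought to the facility. Per the study's design text they were caged singly, fitted with orogastric tubes and a jugular catheter, and the drug was given once into that vein; the untreated piglets have no further agent on their labels. The remaining 10 arrays belong to a separate experiment with busulfan plus cyclophosphamide (BUCY; 5 treated and 5 untreated) and enter only where the drugs are compared. No dose, interval to sampling or gut segment is given in the sources used here, and whether treatment or sampling took place at 3 days is not stated. Each two-colour Agilent array carried the RNA of 1 piglet in Cy5 and a pool of all samples in Cy3, so each value below is a log2 ratio of piglet to pool, and a change is the mean of treated minus the mean of untreated piglets. All 5 measured markers of absorptive enterocytes (ANPEP, APOA4, EPCAM, FABP1 and FABP2) and both measured ileal markers (SLC10A2 and FABP6) were well above background on all 12 arrays. Of 4 pancreatic markers 1 was well above background on all 12 arrays and 1 on none.

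Between 64.3% and 72.5% of the probes were well above background in Cy5, and the difference in this share between the groups did not pass ( -1.5 percentage points, exact permutation test over arrays, two-sided, p = 0.305, adjusted p = 0.641 over 4 array measures). The arrays lay on 5 slides scanned on 3 days. Slides 1, 2 and 6 and scan days 1 and 3 held both groups, and scan day 2 held 1 treated piglet alone. The first principal component carried 31.8% of the variance. Treated piglets lay at -39.8 to 6.23 on it and untreated piglets at 7.79 to 34.95; treated piglets 4 and 5, at 6.23 and 1.77, were nearest to the untreated ones.

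At an adjusted p under 0.05 (limma on the log2 ratios, two-sided, Benjamini-Hochberg over 43603 probes), 944 probes (2.16%) differed, 425 of them higher (0.975%) and 519 lower (1.19%) after DOX. A RefSeq symbol could be attached to 3029 genes, each read from its brightest probe. Of these, 133 (4.39%) were called: 62 rose (2.05%) and 71 fell (2.34%). Among called genes 13 rose and 9 fell by more than 2-fold, and 79 had treated and untreated values that did not overlap, against 105 of all 3029 genes (3.47%; 61 lower, 2.01%). An immunoglobulin record, the T cell genes CD8A, GZMK and LCK, the mast cell gene MS4A2 and the mitochondrial genes CYCS and HSPD1 were among those that fell. The defence genes REG3G and LYZ, the complement genes CFB and C2 and the macrophage genes CD14 and CD163 were among those that rose. Other genes of these cell types went the other way. Of 20 macrophage and dendritic cell genes 8 had a negative change, and CCR2 fell. Of 12 mast cell and eosinophil genes 7 had a positive change. With array normalisation by median centring in place of the deposited values, 304 probes were called and 27.3% of them were higher, against 45.0% in the deposited values. Leaving out treated piglet 4 raised the number of called probes to 1621, and leaving out any one of the other 11 gave 471 to 979.

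**Figure D1:**
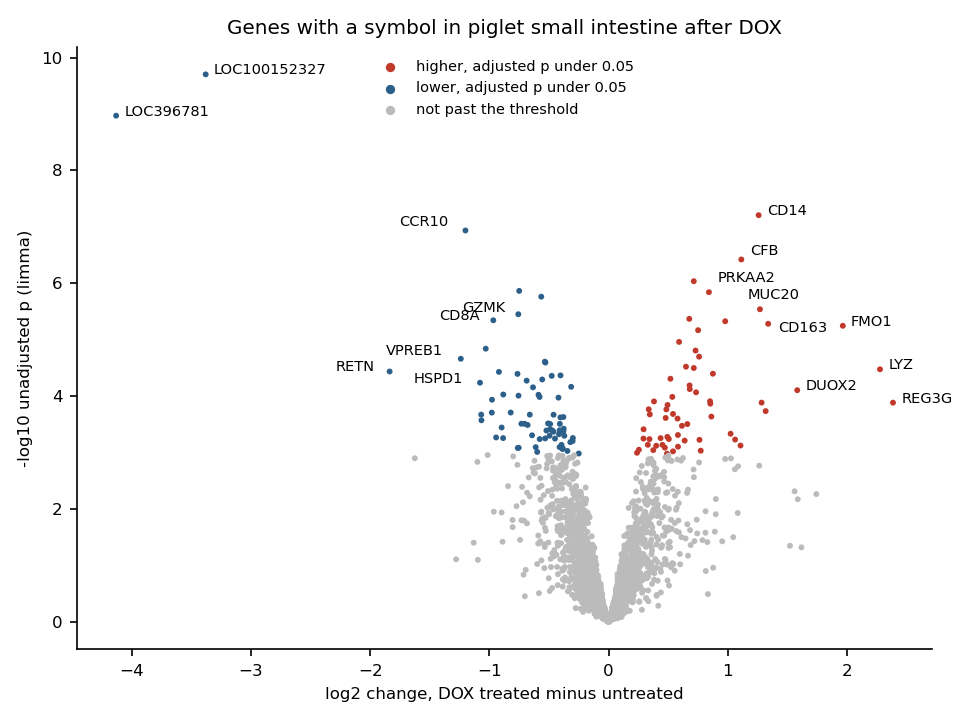
Log2 change (x axis, treated minus untreated, 6 piglets each) against -log10 of limma's unadjusted p (y axis) for the 3029 genes with a symbol; red and blue points are the 62 genes that rose and the 71 that fell. The immunoglobulin heavy chain record LOC396781 and LOC100152327 stand apart at the left, at -4.13 and -3.38.

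The largest fall of any gene with a symbol was in LOC396781, which RefSeq also lists as IGHG, the constant heavy chain of immunoglobulin G. Its log2 ratio ran from -3.25 to -2.44 in treated piglets (median -2.81) and from 0.015 to 2.15 in untreated piglets (median 1.32). Every treated piglet lay below every untreated one, and the mean difference was -4.13 (SE 0.28, 17.5-fold lower, adjusted p = 2.02e-06). The gene had 13 probes, all 13 were called, none overlapped between the groups, and their changes ran from -4.62 to -2.78 with a median of -4.32. The difference was -3.77 on scan day 1 and -4.26 on scan day 3. LOC100152327, a RefSeq record without a descriptive name, fell by 3.38 (SE 0.20, adjusted p = 5.39e-07), again with no overlap: its ratios lay from -2.81 to -1.89 in treated piglets (median -2.58) and from 0.31 to 1.398 in untreated piglets (median 1.08).

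The same pattern was seen in probes to which no symbol could be attached. Probe A_72_P736382 lay from -3.90 to -3.20 in treated piglets (median -3.59) and from 0.72 to 2.15 in untreated piglets (median 1.33), a change of -4.97 (SE 0.21, adjusted p = 8.61e-08). Probe A_72_P774246 lay from -2.76 to -2.12 in treated piglets (median -2.47) and from 0.52 to 1.37 in untreated piglets (median 1.15), a change of -3.49 (SE 0.16, adjusted p = 8.86e-08). Their p were smaller than that of any gene read from its brightest probe, and their genes are not named here. Of the 944 called probes, 663 carry no symbol.

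Some genes of B-lineage cells also fell. CCR10, the receptor by which antibody-secreting cells home to mucosa, lay from -0.84 to -0.62 in treated piglets (median -0.72) and from 0.26 to 1.09 in untreated piglets (median 0.37). No treated value reached an untreated one, and the change was -1.20 (SE 0.12, 2.30-fold lower, adjusted p = 0.000123). CD79A, the signalling chain of the B cell receptor, fell by 0.75 (SE 0.18, adjusted p = 0.0444), a call that was lost in 9 of the 12 fits with 1 piglet left out (adjusted p up to 0.0964). VPREB1, part of the surrogate light chain of B cell precursors, fell by 1.24 (SE 0.20, adjusted p = 0.00725) and was well above background on 2 of 6 treated and 6 of 6 untreated arrays, so the size is uncertain (-3.503 with Agilent's own log ratios); it lies outside the lists and was chosen after its values were seen. In the list of B and plasma cells 2 of 13 measured genes fell and none rose (all genes 2.34% and 2.05%). The lists were chosen with earlier results of these data known, so list counts, here and below, are descriptions and no test. Of the 13, 4 had a positive change, and the median change was -0.089 against -0.019 over all 3029 genes. CCL28, an epithelial attractant for CCR10-bearing cells, changed by 0.37 and PIGR, the receptor that carries IgA across the epithelium, by 0.61, neither past the threshold. In whole-tissue RNA fewer cells of a type and less RNA per cell cannot be told apart, here or below.

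The B cell surface marker MS4A1 (CD20) was weak on these arrays, well above background on 0 of 6 treated and 3 of 6 untreated arrays. It did not pass the threshold (adjusted p = 0.444), and 1 untreated piglet stood far above the rest, at 1.34. The summed ratio to the pool over the B cell markers MS4A1 and CD79A was 1.53 to 1.89 in treated and 1.88 to 4.8 in untreated piglets, so the ranges touched. Its part in the falls of LOC396781 and CCR10 was not tested.

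**Figure D2:**
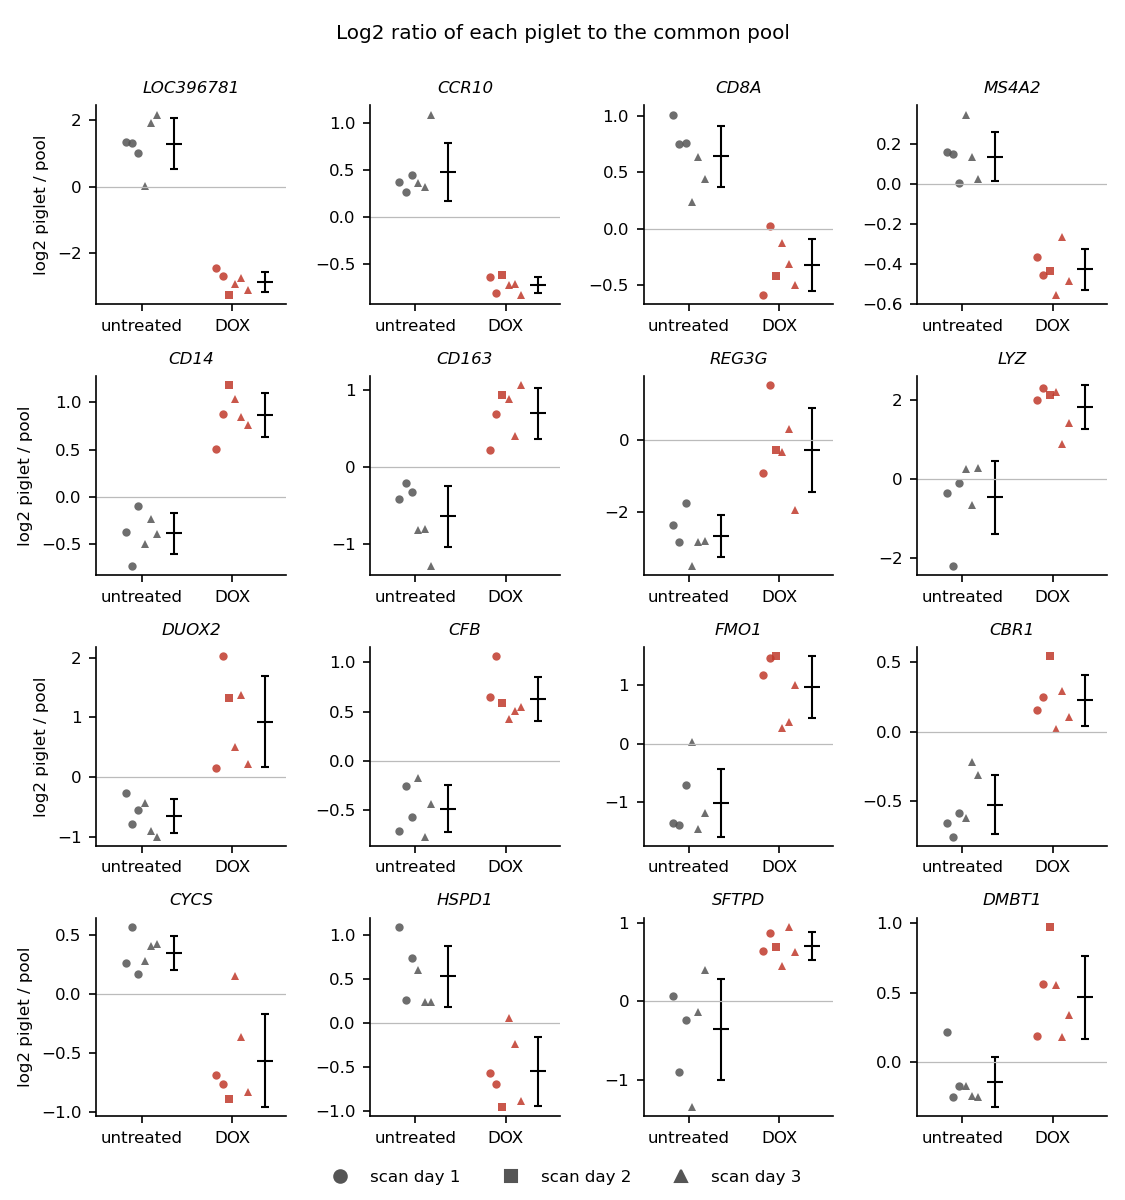
Log2 ratio of each piglet to the pool (y axes) for 16 genes in untreated (grey) and DOX treated (red) piglets, with marker shapes for the scan day; black bars give the mean and SD of 6 piglets. LOC396781, CCR10 and MS4A2 separate the groups completely, CD14 and CFB do so in the other direction, and treated REG3G values spread from -1.94 to 1.502.

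Several T cell genes fell. Of 32 measured genes of T and NK cells 5 fell and none rose (all genes 2.34% and 2.05%), 27 had a negative change, and the median change was -0.33; with Agilent's own log ratios 3 fell and the median was -0.83. CD8A, the co-receptor of cytotoxic T cells, lay from -0.59 to 0.019 in treated piglets (median -0.37) and from 0.23 to 1.02 in untreated piglets (median 0.70). The groups did not overlap, and the change was -0.97 (SE 0.13, adjusted p = 0.00227). The mean of its 2 probes, both lower, changed less, by -0.56. GZMK, a granzyme of memory T cells, fell by 0.76 (SE 0.10, adjusted p = 0.00196) and LCK, the kinase that starts T cell receptor signalling, fell by 0.88 (SE 0.16, adjusted p = 0.015). The receptor chains CD3E and CD3G fell by 0.68 and 0.94 (adjusted p = 0.0279 and 0.0372). Each lost the call in 9 of 12 fits with 1 piglet left out. The mean of the 2 CD3G probes changed by -0.49. CD2, an adhesion receptor of T cells, and CCL5, a chemokine of activated T cells, had changes of -0.68 and -0.80 that did not pass (adjusted p = 0.104 and 0.0516). The 7 measured T cell markers had a summed ratio of 4.98 to 8.71 in treated and 8.47 to 11.3 in untreated piglets, so the ranges touched.

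CCL21, the chemokine that draws T cells and dendritic cells into lymphoid tissue, lay from -1.28 to -0.21 in treated piglets (median -0.83) and from -0.36 to 0.63 in untreated piglets (median 0.28) and fell by 0.98 (SE 0.18, adjusted p = 0.0165). All 9 measured class II MHC genes had negative changes, but the range was -0.33 to -0.071 and none passed. None of 12 class I genes and none of 31 interferon response genes passed.

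Mast cell and eosinophil genes gave 3 falls and no rise among 12 measured (all genes 2.34% and 2.05%). Of the 12, 7 had a positive change. The median of 0.0023 turned negative with loess alone, Agilent's ratios or median centring (-0.016, -0.029 and -0.14). MS4A2, the beta chain of the IgE receptor of mast cells, lay from -0.56 to -0.26 in treated piglets (median -0.45) and from 0.0030 to 0.35 in untreated piglets (median 0.14). The groups were fully apart (change -0.56, SE 0.071, adjusted p = 0.00109), with 3 of 6 treated and 6 of 6 untreated arrays well above background. MCT7, a mast cell tryptase, had a larger change, -1.10, that did not pass (adjusted p = 0.0565); treated piglet 5, at 0.56, lay among the untreated ones and treated piglet 4, at 0.24, just below the lowest of them, 0.27. LOC396700, an unnamed record a few genes from MCT7 in RefSeq order, fell by 1.07 (SE 0.21, adjusted p = 0.0224). Its call was lost in 3 of 12 fits with 1 piglet left out. CCR3, the eotaxin receptor of eosinophils, was not well above background on any treated array but was on 5 of 6 untreated arrays, which makes it at least 1.78-fold lower (adjusted p = 0.0377). IL4 passed (adjusted p = 0.0491) but was well above background on 0 treated arrays and 1 untreated array, so no fold is given. These calls were lost in 10 (CCR3) and 11 (IL4) of the 12 fits with 1 piglet left out.

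Macrophage genes moved in both directions. CD14, the co-receptor for bacterial lipopolysaccharide, lay from 0.51 to 1.18 in treated piglets (median 0.86) and from -0.74 to -0.10 in untreated piglets (median -0.39). All treated piglets were above all untreated ones, and the change was 1.26 (SE 0.12, adjusted p = 7.31e-05). CD163, the scavenger receptor for haemoglobin, rose by 1.34 (SE 0.19, adjusted p = 0.00251) and GPNMB, a glycoprotein of lipid-laden macrophages, by 1.02 (SE 0.22, adjusted p = 0.0345). The GPNMB call was lost in 7 of 12 fits with 1 piglet left out, with loess alone (adjusted p = 0.0569) and under both the slide and the scan day block. CCR2, the receptor that brings monocytes out of the blood, fell by 0.58 (SE 0.11, adjusted p = 0.0155), and the pan-macrophage gene AIF1 had a change of -0.43 that did not pass (adjusted p = 0.0704). Over the list of 20 measured genes 3 rose and 1 fell (all genes 2.05% and 2.34%). The list's median was 0.058 (1 rose with median centring) against -0.019 over all genes. The summed ratio over CD163, AIF1 and CD14 was 3.23 to 5.01 in treated and 2.21 to 2.92 in untreated piglets.

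Of 19 neutrophil-related genes 5 rose and 1 fell (all genes 2.05% and 2.34%), with a median of 0.031 that turned to -0.022 with median centring, where 1 rose. S100A8 rose by 0.58 (adjusted p = 0.0246) and S100A12 by 0.54 (adjusted p = 0.0474), both calcium-binding proteins of neutrophils. The related S100A9 changed by 0.13 (adjusted p = 0.597) and was well above background on 4 treated and 2 untreated arrays. The neutrophil attractant CXCL2, the growth factor CSF2 and the adhesion molecule ICAM1 rose by 0.76, 0.58 and 0.48 (adjusted p = 0.0386, 0.0354 and 0.0243). With 1 piglet left out, the calls of S100A12, CSF2, CXCL2, ICAM1 and S100A8 were lost in 10, 9, 7, 3 and 2 of 12 fits. RETN, encoding resistin, made in humans by myeloid cells, went the other way: it lay from -1.84 to -0.43 in treated piglets (median -1.24) and from -0.33 to 1.23 in untreated piglets (median 0.73) and fell by 1.84 (SE 0.31, adjusted p = 0.00939). The summed ratio over S100A8, S100A9 and S100A12 was 2.91 to 4.98 in treated and 2.54 to 2.83 in untreated piglets, and its part in the list was not tested.

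Of 33 cytokine and inflammation genes IL18 and NFKBIA rose and CCL21 fell (all genes 2.05% and 2.34%), and the median change was -0.050. IL18, an inflammasome cytokine made by enterocytes, lay from 0.075 to 0.96 in treated piglets (median 0.46) and from -0.82 to 0.019 in untreated piglets (median -0.41). All treated values exceeded all untreated ones (change 0.86, SE 0.17, adjusted p = 0.0236), and the call was lost without treated piglet 3 (adjusted p = 0.0522) or untreated piglet 6 (adjusted p = 0.0501). NFKBIA, the inhibitor that NF-kB itself induces, rose by 0.58 (adjusted p = 0.0437), a call lost in 9 of 12 fits with 1 piglet left out. TNF, IL1B and IL6 changed by -0.21, 0.25 and 0.023 and did not pass. Among 19 pattern recognition genes 1 rose and 1 fell (all genes 2.05% and 2.34%). TLR2, the receptor for bacterial lipoproteins, rose by 0.64 (adjusted p = 0.039, lost in 9 of 12 such fits). TLR8, an endosomal sensor of single-stranded RNA, fell by 0.56 (adjusted p = 0.0111).

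The list of mucosal defence genes held several called increases, but it too was chosen with earlier results of these data known. Of its 33 measured genes 9 rose (LYZ, DUOX2, DUOXA2, REG3G, ANG, DMBT1, SFTPD and the neutrophil genes S100A8 and S100A12), 1 fell (all genes 2.05% and 2.34%) and 24 had a positive change, and the list's median change was 0.26; with median centring 4 rose. REG3G, an antibacterial lectin released by the gut epithelium, lay from -1.94 to 1.502 in treated piglets (median -0.31) and from -3.48 to -1.74 in untreated piglets (median -2.80). Its lowest treated value, -1.94, was below the highest untreated value, -1.74, and the change was 2.39 (SE 0.45, 5.23-fold higher, adjusted p = 0.0174). LYZ, encoding lysozyme, lay from 0.89 to 2.30 in treated piglets (median 2.06) and from -2.19 to 0.29 in untreated piglets (median -0.23), without overlap, and rose by 2.28 (SE 0.38, adjusted p = 0.00888). ANG, encoding the ribonuclease angiogenin, rose by 1.32 (SE 0.26, adjusted p = 0.0211). That call was lost without untreated piglet 1 (adjusted p = 0.0512) or treated piglet 2 (adjusted p = 0.0511).

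DUOX2, the oxidase that releases hydrogen peroxide at the epithelial surface, and DUOXA2, the maturation factor without which it does not leave the endoplasmic reticulum, rose together. DUOX2 lay from 0.14 to 2.03 in treated piglets (median 0.91) and from -0.995 to -0.26 in untreated piglets (median -0.66), with no overlap (change 1.58, SE 0.29, adjusted p = 0.0137). DUOXA2 changed by 1.11 (SE 0.26, adjusted p = 0.0426), a call lost in 9 of 12 fits with 1 piglet left out. Of the 4 DUOX2 probes 3 agreed in sign, and the mean of all its probes did not pass (adjusted p = 0.0556).

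SFTPD and DMBT1, the pair named in the title of the series, encode surfactant protein D, a collectin that binds microbial sugars, and a scavenger-receptor glycoprotein of mucosal secretions that binds it. SFTPD lay from 0.45 to 0.95 in treated piglets (median 0.66) and from -1.35 to 0.40 in untreated piglets (median -0.19); every treated piglet exceeded every untreated one (change 1.06, SE 0.24, adjusted p = 0.0383, exact permutation p = 0.0022). DMBT1 lay from 0.18 to 0.98 in treated piglets (median 0.45) and from -0.26 to 0.21 in untreated piglets (median -0.21), and untreated piglet 1, at 0.21, overlapped treated piglets 1 and 5 (change 0.62, SE 0.13, adjusted p = 0.0285, exact permutation p = 0.0065). The smallest p that the exact test over 12 arrays can give is 0.0022. Both exact p were taken over 2 genes and were 0.0043 and 0.0065 after Benjamini-Hochberg adjustment. The 2 genes came from the title of the series and the arrays are the same, so these p are no separate support. The limma calls of SFTPD and DMBT1 were lost in 8 and 6 of the 12 fits with 1 piglet left out, with adjusted p up to 0.0853 and 0.0669.

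Of 6 measured goblet cell and mucin genes the membrane mucins MUC20 and MUC4 rose (2.05% of all genes). MUC20 lay from 0.75 to 1.57 in treated piglets (median 0.99) and from -0.78 to 0.099 in untreated piglets (median -0.081), fully apart (change 1.27, SE 0.17, adjusted p = 0.00169). MUC4 changed by 0.85 (SE 0.16, adjusted p = 0.0178) and was well above background on 6 treated arrays and 1 untreated array; its 2 probes disagreed in sign. Its size is uncertain, at 3.38 with Agilent's own log ratios and 0.41 as the mean of its probes. CLCA1, a secreted goblet cell protein, changed by 0.50 and did not pass. Not all antimicrobial genes rose. LEAP2, a liver and gut peptide, lay from -0.65 to 0.20 in treated piglets (median -0.43) and from 0.22 to 0.94 in untreated piglets (median 0.78). It fell by 1.03 (SE 0.16, adjusted p = 0.00546). The beta-defensin DEFB1 fell by 0.41 (adjusted p = 0.0319). The DEFB1 call was lost in 6 of 12 fits with 1 piglet left out. It was also lost with loess alone, under both the slide and the scan day block, and as the mean of its probes.

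Several complement components rose. In the list of complement and acute phase genes 6 of 32 rose and none fell (all genes 2.05% and 2.34%), with a median of 0.050; with median centring 3 rose. The alternative pathway factor CFB lay from 0.42 to 1.06 in treated piglets (median 0.57) and from -0.77 to -0.18 in untreated piglets (median -0.50), with no overlap between groups (change 1.11, SE 0.12, adjusted p = 0.000337). The convertase component C2 rose by 0.59 (SE 0.088, adjusted p = 0.0045), the central component C3 by 0.73 (SE 0.13, adjusted p = 0.0143) and the terminal pathway component C5 by 0.72 (SE 0.12, adjusted p = 0.00888). C5AR1, the receptor for the C5a fragment, rose by 0.66 (adjusted p = 0.0274), and CP, the copper-carrying acute phase protein ceruloplasmin, by 0.98 (SE 0.13, adjusted p = 0.00231). The C5AR1 call was lost in 5 of 12 fits with 1 piglet left out. The recognition chains C1QA, C1QB and C1QC, made by macrophages, had changes of -0.36, -0.35 and -0.31 that did not pass, and the acute phase proteins HP (haptoglobin) and CRP had changes of -0.049 and -0.13 that did not pass either.

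**Figure D3:**
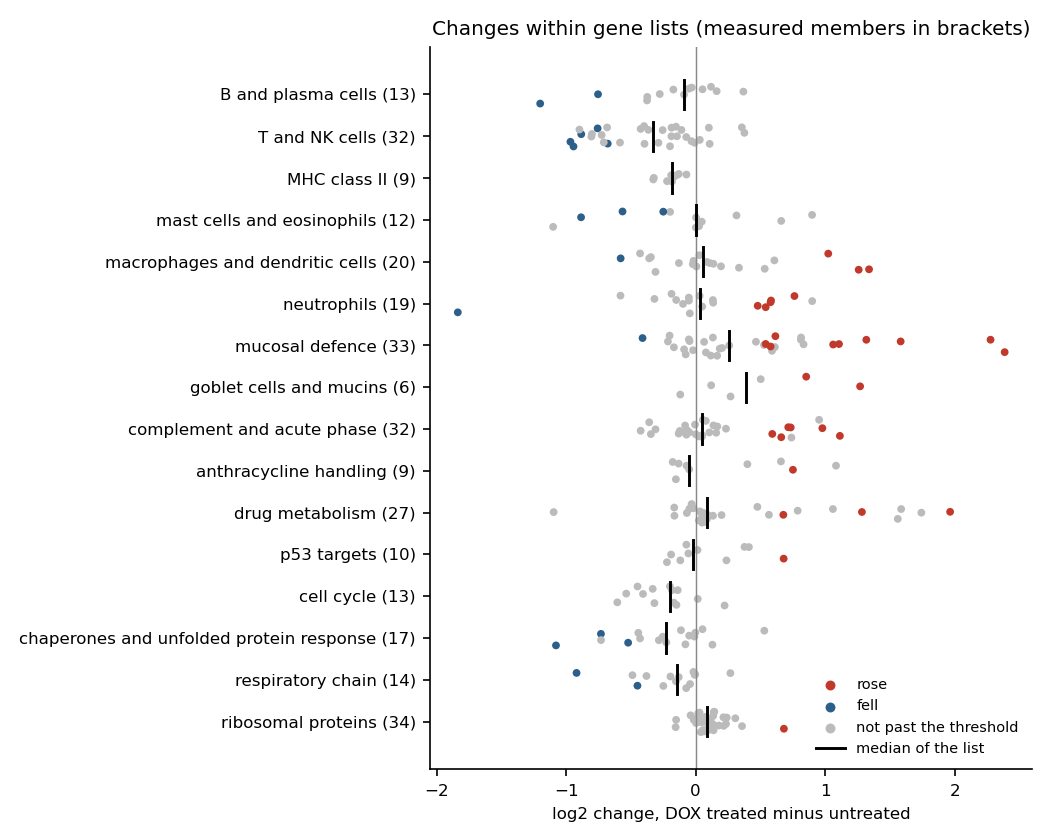
Log2 change of each measured member (points) in 16 gene lists, treated minus untreated (x axis); red and blue points rose or fell at an adjusted p under 0.05, black bars are list medians. Mucosal defence has 9 red points of 33, T and NK cells 5 blue points of 32 and complement 6 red points of 32.

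The drug's own targets and the genes that handle it gave 1 call. TOP2A, the topoisomerase of dividing cells, lay from -0.55 to 0.22 in treated piglets (median 0.0085) and from 0.099 to 1.11 in untreated piglets (median 0.31), with a change of -0.56 (SE 0.19) that did not pass (adjusted p = 0.149), and TOP2B, the form present in resting cells, changed by -0.19 (adjusted p = 0.354). No gene of 13 in the cell cycle list passed; 11 had a negative change and the median was -0.20. The mitotic cyclin CCNB1 changed by -0.60 (adjusted p = 0.0629) and the mitotic kinase AURKA by -0.41 (adjusted p = 0.147). CCNG1, encoding cyclin G1, was the 1 called gene of 10 measured p53 targets (4.39% of all genes) and rose. It lay from -0.22 to 0.43 in treated piglets (median -0.015) and from -0.78 to -0.20 in untreated piglets (median -0.71) (change 0.68, SE 0.12, adjusted p = 0.0122). MDM2, FAS and GADD45A had changes of -0.12, 0.38 and -0.22 that did not pass. P14ARF, the tumour suppressor that restrains MDM2, rose by 0.45 (adjusted p = 0.0422), a call lost in 10 of 12 fits with 1 piglet left out; it lies outside the lists and was chosen after its values were seen.

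CBR1, the carbonyl reductase that turns doxorubicin into its alcohol, was the 1 called gene of 9 measured for anthracycline handling (4.39% of all genes). It lay from 0.019 to 0.54 in treated piglets (median 0.20) and from -0.75 to -0.22 in untreated piglets (median -0.60). All treated piglets were above all untreated ones (change 0.75, SE 0.11, 1.68-fold higher, adjusted p = 0.00302). The quinone reductase NQO1 and the aldo-keto reductase AKR1C1 had changes of 0.66 and 1.08 that did not pass (adjusted p = 0.105 and 0.154). In the list of drug metabolism 3 of 27 genes rose and none fell (all genes 2.05% and 2.34%). FMO1, a flavin monooxygenase, lay from 0.26 to 1.49 in treated piglets (median 1.07) and from -1.46 to 0.018 in untreated piglets (median -1.26) and rose by 1.97 (SE 0.28, 3.90-fold, adjusted p = 0.00269). The sulfotransferases SULT2A1, which acts on steroids and bile acids, and SULT1A3, which acts on catecholamines, rose by 1.28 and 0.68 (adjusted p = 0.0174 and 0.00219). CYP3A29, the pig counterpart of the main human drug-oxidising cytochrome, had a change of 1.56 with SE 0.47 and did not pass (adjusted p = 0.102).

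CYCS, HSPD1 and HSPE1, which encode mitochondrial proteins, fell. CYCS, encoding cytochrome c, lay from -0.89 to 0.15 in treated piglets (median -0.72) and from 0.17 to 0.57 in untreated piglets (median 0.34). Only treated piglet 4, at 0.15, approached the lowest untreated value, and the change was -0.92 (SE 0.15, adjusted p = 0.00949), with the same sign in all 12 probes of the gene. HSPD1 and HSPE1 encode the pair that folds proteins in the mitochondrial matrix (Hsp60 and Hsp10). HSPD1 lay from -0.96 to 0.062 in treated piglets (median -0.63) and from 0.24 to 1.09 in untreated piglets (median 0.43), without overlap (change -1.08, SE 0.19, adjusted p = 0.0118, 12 of 12 probes of the same sign), and HSPE1 fell by 0.73 (SE 0.15, adjusted p = 0.0273). In the respiratory chain list CYCS and UQCRB, a subunit of complex III, were the 2 called of 14, both lower (2.34% of all genes), with 13 negative changes and a median of -0.14. The calls of HSPE1 and UQCRB were lost in 8 and 9 of 12 fits with 1 piglet left out.

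Of mitochondrial genes outside the lists 5 that fell are given; all but ATP5G1 were chosen after their values were seen, so they say nothing of such genes as a group. They were NDUFC1 of complex I (fell by 0.53, adjusted p = 0.00759), the ATP synthase subunits ATP5G1 and ATP5G3 (fell by 0.46 and 0.49, adjusted p = 0.0328 and 0.0274), the ATP synthase inhibitor ATPIF1 (fell by 0.48, adjusted p = 0.0101) and the iron-sulfur cluster enzyme NFS1 (fell by 0.53, adjusted p = 0.00743). NDUFC1, ATPIF1 and NFS1 showed no overlap between the groups, and the calls of ATP5G1 and ATP5G3 were lost in 9 and 6 of 12 fits with 1 piglet left out. In the list of fasting and fat oxidation 2 of 18 measured genes fell and none rose (all genes 2.34% and 2.05%). Of the 18, 8 had a positive change and the median was -0.068. ACADM, the medium-chain acyl-CoA dehydrogenase of fat oxidation, lay from -0.80 to -0.13 in treated piglets (median -0.62) and from -0.13 to 0.24 in untreated piglets (median 0.069) and fell by 0.63 (SE 0.11, adjusted p = 0.0128), with 7 of 7 probes of the same sign. PPARGC1A, the coactivator that drives mitochondrial gene expression, lay from -1.98 to -0.67 in treated piglets (median -1.21) and from -0.72 to 0.012 in untreated piglets (median -0.17) and fell by 0.98 (SE 0.19, adjusted p = 0.0216). Its call was lost without treated piglet 2 (adjusted p = 0.0526) or untreated piglet 5 (adjusted p = 0.0513).

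Of 17 chaperone genes HSPD1, HSPE1 and HSP90B1, the endoplasmic reticulum form of Hsp90, fell and none rose (all genes 2.34% and 2.05%). The median was -0.23. With median centring 1 fell and the median was -0.43. HSP90B1 fell by 0.52 (adjusted p = 0.0319), with all 8 probes of the same sign, and lost the call in 9 of 12 fits with 1 piglet left out. DNAJB11, an endoplasmic reticulum co-chaperone, and DERL1, which returns misfolded proteins to the cytosol, fell by 0.46 and 0.38 (adjusted p = 0.0224 and 0.0238). Both lie outside the lists and were chosen after their values were seen. Their calls were lost in 4 and 3 of 12 fits with 1 piglet left out. The stress factors ATF4, DDIT3 and XBP1 had changes of -0.0094, -0.0027 and 0.053 that did not pass. ODC1, the rate-limiting enzyme of polyamine synthesis in growing epithelium, lay from -0.49 to -0.055 in treated piglets (median -0.24) and from 0.24 to 0.70 in untreated piglets (median 0.56) and fell by 0.75 without overlap (SE 0.092, adjusted p = 0.000901). PSME3, a proteasome activator, fell by 0.61 (adjusted p = 0.0438, lost in 10 of 12 such fits), 1 of 13 proteasome genes (2.34% of all genes). Ribosomal protein genes had small positive changes in 30 of 34, with a median of 0.089, but 18 of 34 and 0.0084 with median centring of the arrays. RPL13A alone of the 34 was called (0.68, adjusted p = 0.0133; 4.39% of all genes), and not with median centring (adjusted p = 0.147).

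PRKAA2, DDIT4, KLF15 and TXNIP, which lie outside the lists, rose; they were chosen after their values were seen and stand for no group. PRKAA2, the catalytic alpha2 subunit of the energy sensor AMPK, lay from 0.080 to 0.58 in treated piglets (median 0.45) and from -0.70 to -0.26 in untreated piglets (median -0.45). The groups were fully apart (change 0.84, SE 0.10, adjusted p = 0.000936). DDIT4, a stress-induced inhibitor of mTORC1, rose by 0.73 (adjusted p = 0.00571), KLF15, a glucocorticoid-responsive regulator of amino acid use, by 0.65 (adjusted p = 0.00852), and TXNIP, which limits glucose uptake, by 0.77 (adjusted p = 0.0465). DDIT4 did not overlap between the groups, KLF15 did through untreated piglet 3 and treated piglet 1, and TXNIP lost its call in 10 of 12 fits with 1 piglet left out. PDK4, the kinase that shuts off pyruvate oxidation in fasting, changed by 1.09 and did not pass (adjusted p = 0.0612).

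Absorptive functions showed few called changes, and the summed ratio over the 5 enterocyte markers was 3.53 to 6.49 in treated and 4.52 to 11.4 in untreated piglets. VNN1, the brush border enzyme that splits pantetheine, was the 1 called gene of 11 in the brush border list (4.39% of all genes). It lay from -2.96 to -1.53 in treated piglets (median -2.27) and from -1.55 to -0.48 in untreated piglets (median -1.20). It fell by 1.07 (SE 0.22, adjusted p = 0.0255). That call was lost without treated piglet 1 (adjusted p = 0.0547) or untreated piglet 3 (adjusted p = 0.0527). SLC10A2, the ileal bile acid importer, just missed the threshold, with -1.01 (SE 0.25, adjusted p = 0.0503). FABP6, the ileal bile acid binding protein, ranged from -2.35 to 2.52 within the untreated group, with untreated piglet 3 highest; its change of -0.70 (adjusted p = 0.708) was 0.0020 without that piglet. No gene of 29 in nutrient and ion transport passed; the iron importer SLC11A2 and the peptide importer SLC15A1 led with -0.29 and -0.50 (adjusted p = 0.151 and 0.158).

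In lipid handling 2 of 29 genes were called (4.39% of all genes). SQLE, an early enzyme of cholesterol synthesis, rose by 0.52 (adjusted p = 0.0108). SAR1B, the GTPase that lets chylomicrons leave the endoplasmic reticulum, fell by 0.30 (adjusted p = 0.0377). The SAR1B call was lost in 8 of 12 fits with 1 piglet left out. The tight junction gene CLDN3 rose by 0.50 (adjusted p = 0.0183), and so did EGFR, the receptor for epithelial growth factors, by 0.49 (adjusted p = 0.0203; outside the lists and chosen after its values were seen). Of 22 matrix genes 1 rose and 2 fell (all genes 2.05% and 2.34%). The fibrillar collagen COL1A2 fell by 0.90 (adjusted p = 0.0296) and the matricellular POSTN by 0.76 (adjusted p = 0.0444). The gelatinase MMP2 rose by 0.40 (adjusted p = 0.0426). The calls of COL1A2, POSTN and MMP2 were lost in 8, 9 and 10 of the 12 fits with 1 piglet left out. CTSA, a lysosomal carboxypeptidase, rose by 0.29 (adjusted p = 0.0311), 1 of 20 lysosomal genes (2.05% of all genes). Its 2 probes disagreed in sign. EDNRB, the endothelin receptor B, rose by 0.35 (adjusted p = 0.0224), 1 of 14 endothelial genes (2.05% of all genes). The calls of CTSA and EDNRB were lost in 7 and 3 of 12 fits with 1 piglet left out.

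In the remaining lists no gene passed, and their leading genes are given for size. They were ASCL2 and KLF5 of the crypt (0.26 and 0.20), SCG2 and GCG of enteroendocrine cells (0.52 and -0.23), NPY and UCHL1 of enteric neurons (-0.39 and 0.40) and MYL6 and PLN of smooth muscle (-0.55 and 0.31). PRDX6 and GPX3, antioxidant peroxidases, led 22 oxidative stress genes with -0.27 and 0.47 (adjusted p = 0.0743 and 0.0775). NR3C1, the glucocorticoid receptor, and HSD11B1, which regenerates active glucocorticoid, changed by -0.41 and 0.47 (adjusted p = 0.0747 and 0.137). LAMP2 and GUSB, both lysosomal proteins, changed by 0.40 and 0.33. MX1 of the interferon response changed by -0.45, SLA-DOA and SLA-DMA led the class II genes with -0.32 and -0.16, and NLRC5 and PSMB8 the class I genes with 0.14 and -0.23. Among genes of other tissues AMY2 and PLA2G1B (pancreas) changed by 0.45 and -0.12, LEP and CIDEC (fat) by 0.13 and -0.37 and the embryonic globin HBE1 by -0.19.

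Within batches the called genes kept their directions. Of the 133 called genes 131 had the same sign within each of the 3 slides that held both groups (41.3% of all genes), and 133 of 133 had it on both scan days that held both groups (58.9% of all genes). These genes were chosen on the same arrays, so the counts describe them and are no separate test. With slide as a fixed block 65 genes were called, 43 of them among the 133; with scan day as a fixed block 96 were called, 78 of them shared. CD14, CCR10, CFB, CD8A, MS4A2 and GZMK passed under both blocks, with the highest adjusted p at 0.0461, that of GZMK with slide. Of the 91 named genes and probes that passed, 53 lost the call with slide as a block and 31 with scan day. With slide these were CD163 (adjusted p = 0.0512), FMO1 (0.0518), LCK (0.0669), LYZ (0.068), CYCS (0.0688), DUOX2 (0.0862) and DMBT1 (0.123) among others. With scan day SFTPD lost it (adjusted p = 0.0747), as did IL18 (0.0518) and HSPE1 (0.0634).

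**Figure D4:**
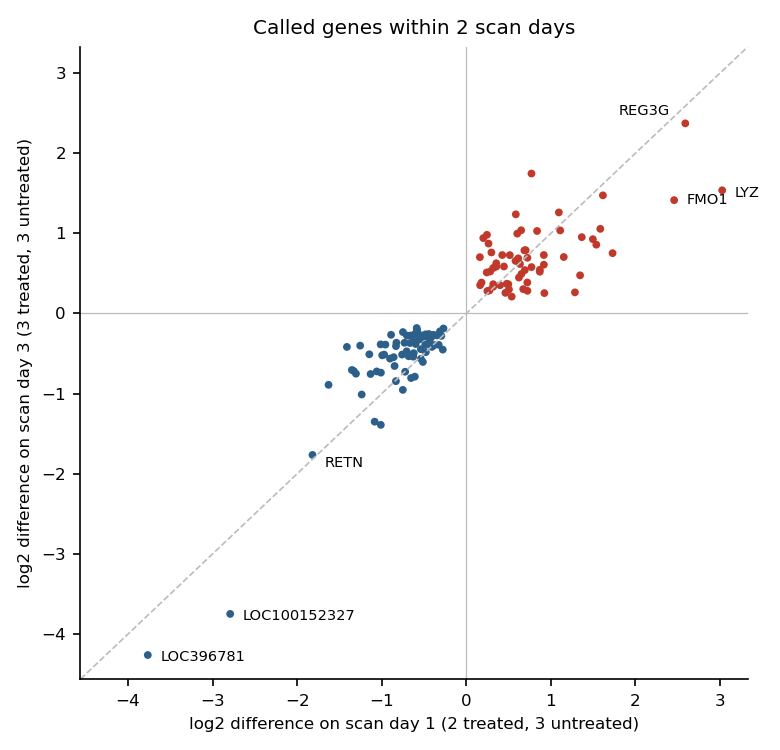
Difference between treated and untreated means on scan day 1 (x axis, 2 treated and 3 untreated piglets) and on scan day 3 (y axis, 3 and 3 piglets) for the 133 called genes, in log2; the dashed line marks equal differences. All points lie in the lower left or upper right quadrant.

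Whether these changes were particular to DOX was tested against the BUCY experiment as the difference of the 2 treatment effects over all 22 arrays. That difference passed for 1867 of 43603 probes (4.28%) and for 272 of 3029 genes (8.98%), and for 30 of the 133 genes called with DOX. Of the 133, 96 had a BUCY change of the same sign, and this share over all genes was not counted. Past the threshold for BUCY were 46 of these 96, and 13 of the 133 were past it in the opposite direction. Of all 3029 genes 662 (21.9%) were called with BUCY in either direction. The 133 genes were chosen on DOX arrays that also enter the difference, so their counts describe them and are no separate test. The piglets of the 2 experiments are different animals, so drug, experiment and interval cannot be told apart. A difference of the 2 effects also holds any gap between their untreated groups.

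CYCS, HSPD1 and HSPE1, which fell with DOX, had positive changes with BUCY. CYCS changed by -0.92 with DOX and 0.67 with BUCY (difference -1.58, adjusted p = 0.0008), HSPD1 by -1.08 and 0.44 (difference -1.52, adjusted p = 0.00579) and HSPE1 by -0.73 and 0.63 (difference -1.36, adjusted p = 0.00232). The BUCY change itself passed for CYCS and HSPE1 and not for HSPD1. The untreated groups of the 2 experiments lay apart for all 3 genes. Untreated ratios in the DOX experiment were 0.17 to 0.57 for CYCS, 0.24 to 1.09 for HSPD1 and -0.19 to 0.61 for HSPE1. In the BUCY experiment they were -1.15 to -0.63, -1.14 to -0.11 and -1.25 to -0.55. HMGN2, a nucleosome-binding protein, ARL1, a Golgi GTPase, and ATP5G1 showed the same pattern. Their differences were -1.28, -0.92 and -0.999 (adjusted p = 0.00101, 0.00178 and 0.00165). The DOX call of ARL1 was lost in 9 of 12 fits with 1 piglet left out. LOC396781 changed by -4.13 with DOX and -1.92 with BUCY (difference -2.21, adjusted p = 0.0221). Its untreated ratios lay from 0.015 to 2.15 in the DOX experiment and from -1.88 to 0.48 in the BUCY experiment. VPREB1 changed by -1.24 and -0.084 (difference -1.15, adjusted p = 0.0089). Its BUCY ratios, treated and untreated, lay from -0.74 to -0.44. DOX treated ratios were as low, -0.98 to -0.46, with 2 of 6 arrays well above background. A fall of VPREB1 with BUCY could thus have been missed. For 2 T cell genes the difference did not pass, which does not show that the drugs act alike: CD8A changed by -0.97 and -1.02 (difference 0.052, adjusted p = 0.946) and CD3G by -0.94 and -2.05 (adjusted p = 0.109 for the difference).

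The DMBT1 change was smaller with DOX than with BUCY, at 0.62 against 3.24 (difference -2.63, adjusted p = 0.0008). Its treated ratios were alike, 0.18 to 0.98 with DOX and -0.16 to 1.22 with BUCY. Its untreated ratios lay apart, from -0.26 to 0.21 in the DOX experiment and from -3.44 to -1.64 in the BUCY experiment. For SFTPD the difference of -0.69 did not pass (adjusted p = 0.462). IL18, KLF15 and ANG rose with DOX and had changes of -0.58, -0.92 and -0.32 with BUCY, of which only that of KLF15 passed, with differences of 1.44, 1.57 and 1.64 (adjusted p = 0.0395, 0.0322 and 0.017). MUC20 differed by 1.11 (adjusted p = 0.0225) and CCNG1 by 0.75 (adjusted p = 0.0109). The ribosomal RPL13A, the integrin chain ITGB5 and the calcium sensor NCALD rose by 0.68, 0.47 and 0.29 with DOX. They differed the same way (differences 1.07, 0.96 and 1.002, adjusted p = 0.00207, 0.00443 and 0.0146). The DOX calls of ITGB5 and NCALD were each lost in 9 of 12 fits with 1 piglet left out.

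**Figure D5:**
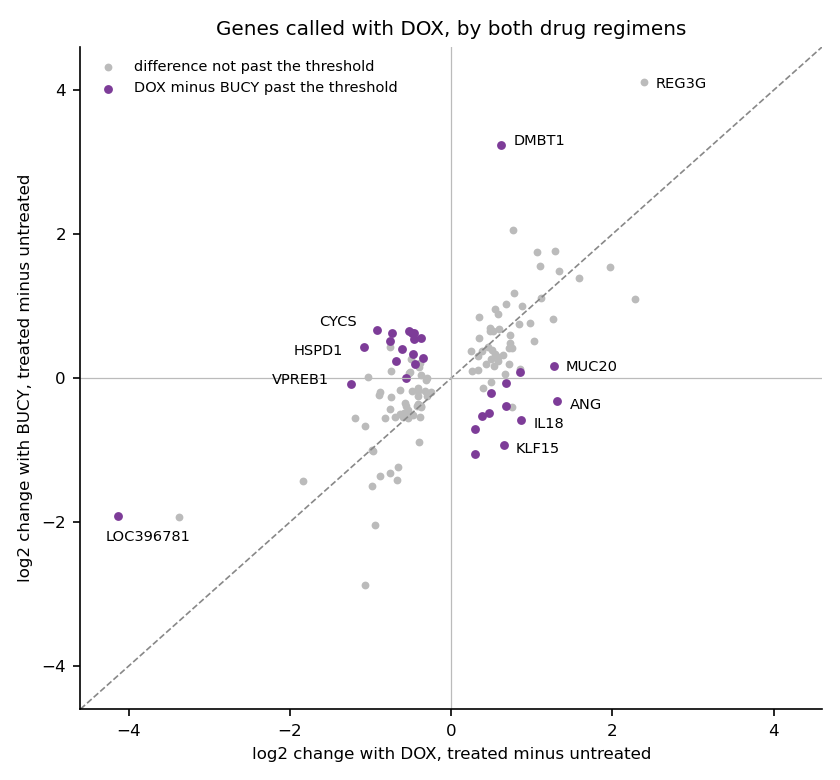
Log2 change with DOX (x axis) and with BUCY (y axis, 5 treated and 5 untreated piglets), treated minus untreated, for the 133 genes called with DOX; purple points are the 30 whose effects differed at an adjusted p under 0.05 and the dashed line marks equal changes. CYCS and HSPD1 lie in the upper left quadrant, and KLF15, IL18 and ANG in the lower right.

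The probes without a symbol that rose most clearly were A_72_P150321 and A_72_P141006. The first lay from 0.71 to 1.36 in treated piglets (median 1.04) and from -0.60 to -0.22 in untreated piglets (median -0.43) (change 1.44, SE 0.11, adjusted p = 6.17e-06) and the other changed by 1.37 (SE 0.11, adjusted p = 1.16e-05); neither overlapped between the groups. Among the 91 named genes and probes past the threshold, 49 passed whichever piglet was left out, and the other 42 failed in 2 to 11 of the 12 fits, with adjusted p up to 0.108.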

How the data were processed

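Small-intestinal RNA of 12 piglets was hybridised to two-colour Agilent arrays with no dye swap. The deposited log2 ratios of Cy5 (piglet) over Cy3 (pool) were used as given; the authors' steps behind them are not stated in the sources used here beyond limma, named in the submitters' processing notes. They matched scanner intensity values corrected with normexp (offset 50), loess and quantile normalisation (r 0.995 to 0.9998 per array), and this offset pulls ratios of dim probes toward 0. Deposited scanner files, made with Agilent Feature Extraction 10.7.3.1 per the file headers, gave the spot intensity, the log10 ratio and other quality flags.

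Groups came from the source labels. The log2 ratios were fitted in R 4.3.3 with limma 3.58.1 (lmFit, eBayes) on 43603 non-control probes, with Benjamini-Hochberg adjustment and a threshold of 0.05; the p-values measure the spread between piglets. Array accessions matched RefSeq records (Sscrofa11.1, names only) for 15.4% of probes, giving 3029 genes, each read from its brightest Cy5 probe. "At least" folds set the bright group against the array's lowest signal well above background. Symbols can share sequence within gene families, so LOC396781 probes may read several immunoglobulin genes.

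The members and lists were chosen with earlier results of these data known. Named were SFTPD, DMBT1, TOP2A and TOP2B, the 14 largest called changes in each direction (probes well above background on at least 4 of 6 arrays of each group), up to 4 called genes of each of 44 lists or the 2 with the smallest p where none passed, up to 2 probes without a symbol in each direction, and up to 5 genes in each direction for the drug difference; other genes were chosen after their values were seen. A few genes that this rule or the marker lists name are not reported here. On simulated data with 200 changed probes 61.2% of changes of 0.5 were recovered, 95.5% of changes of 1 and 100% of changes of 2 (log2). The number of arrays limits the precision. Other normalisations, filters, blocks, variance models and left-out piglets were tried.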

Additional observations from a re-analysis of the deposited data

Results flagged for a closer look

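Among 266 groups of 6 piglets tested for a single distant value, 17 had one, where chance gives about 1 in 20. Untreated piglet 3 stood apart in MS4A1 (1.34), FABP6 (2.52) and SLA-DMA (0.65), being highest, in NCALD (0.24), also highest, and in LEAP2 (0.22), being lowest. Further high values were those of untreated piglet 4 in CCNG1 (-0.20), untreated piglet 6 in CCR10 (1.09), untreated piglet 1 in DMBT1 (0.21), treated piglet 4 in CCR3 (-0.0012) and DNAJB11 (0.32), treated piglet 2 in CFB (1.06) and treated piglet 6 in HSD11B1 (0.92). Low values were those of untreated piglet 4 in CD3E (0.0075), treated piglet 6 in DERL1 (-0.59) and MX1 (-0.67), treated piglet 3 in PLN (-1.10) and treated piglet 1 in SLA-DMA (-0.39). All are log2 ratios to the pool.

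For 34 named genes and probes the DOX change differed from the BUCY change (limma, adjusted p under 0.05 for the difference). The difference (DOX minus BUCY, log2) was negative for 20. It was -2.63 for DMBT1, -2.35 for CCNB1, -2.23 for A_72_P736382, -2.21 for LOC396781, -1.58 for CYCS, -1.52 for HSPD1 and -1.38 for SLC10A2. It was -1.36 for HSPE1, -1.28 for HMGN2, -1.18 for HSP90B1, -1.16 for VPREB1, -1.12 for ATP5G3, -1.10 for AURKA and -1.09 for DNAJB11. It was -1.01 for PSME3, -0.999 for ATP5G1, -0.92 for ARL1, -0.81 for ATPIF1, -0.65 for UQCRB and -0.55 for TLR8. CCNB1 and AURKA, which did not pass with DOX, had changes of -0.60 and -0.41 with DOX and 1.74 and 0.69 with BUCY. Untreated CCNB1 ratios lay from 0.37 to 0.83 in the DOX experiment and from -2.26 to -1.25 in the BUCY experiment. Treated CCNB1 ratios lay from -0.51 to 0.45 with DOX and from -0.70 to 0.71 with BUCY.

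The difference was positive for 14. It was 0.75 for CCNG1, 0.96 for ITGB5, 1.002 for NCALD, 1.07 for RPL13A, 1.11 for MUC20 and 1.36 for CTSA. It was 1.44 for IL18, 1.51 for CCL5, 1.57 for KLF15, 1.64 for ANG, 1.64 for GUSB, 1.72 for AMY2, 1.74 for LAMP2 and 3.34 for CYP3A29. CYP3A29 changed by 1.56 with DOX and -1.78 with BUCY. Its untreated ratios lay from -4.32 to -1.84 in the DOX experiment and from 0.29 to 1.59 in the BUCY experiment.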

How the results depend on the processing

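Against 944 probes and 133 genes called, median centring gave 304 and 55 (27.3% and 30.9% higher), a fit on all 22 arrays 300 and 47, and slide as a fixed block 407 and 65; Agilent's own log ratios gave 87 genes. Leaving out 1 piglet gave 471 to 1621 probes and 77 to 202 genes; both highest counts were without treated piglet 4, and the next highest were 979 and 137. For the difference between the drugs, 1867 probes became 1261 to 3226 with 1 piglet left out, the highest without BUCY treated piglet 1 (an alternative chosen after seeing the data, as was quantile normalisation of both channels). Of 133 named genes and probes, 1 change turned sign: FABP6, at -0.70 with all piglets, ran from -1.07 (without treated piglet 1) to 0.0020 (without untreated piglet 3). Median centring moved the median over all genes from -0.019 to -0.072. The planned quantile step on mean signals leaves ratios as loess gives them and has no value of its own. No paired analysis was possible because replicate numbers name piglets of separate groups and pair none. The cause of these shifts was not tested. The ratios of dim probes are compressed, so changes near background are understated.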
